A study of Mus musculus with 6 samples.

Results

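The genes described here are 10 genes of the cartilage programme, chosen by name: the transcription factor genes *Sox5*, *Sox6* and *Sox9*, and the cartilage matrix genes *Acan*, *Hapln1*, *Comp*, *Matn1*, *Matn3*, *Matn4* and *Ucma*. They are 10 of the 44556 gene symbols listed in each count table. All 10 were found by symbol, and 9 had enough reads to be tested, *Hapln1* being the exception. The samples were parietal bones, the flat bones that form most of the skull roof, taken from newborn C57BL/6 mice. There were 3 libraries from OsxCre mice and 3 from OsxCre;Stat3fl/fl littermates. Both genotypes carry Cre recombinase under the control of *Osx*, a gene of osteoblast precursors. The second also carries floxed *Stat3* alleles, from which Cre removes only the exons between its target sites. The controls therefore share the Cre transgene, and cartilage cells are not the main cells in which this Cre is active. The methods name as many mice of each genotype as there are libraries, and the labels do not tie a library to an animal, so the p-values measure the spread between these libraries.

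Cartilage is built by chondrocytes. SOX9 starts and maintains the chondrocyte state, and SOX5 and SOX6, which lack an activation domain of their own, work beside it on the same cartilage genes. The matrix they switch on is a network of type II, IX and XI collagen fibrils filled with aggrecan, a very large proteoglycan that holds water and is fixed to hyaluronan by link protein. Matrilins and COMP bridge the fibrils and the proteoglycans, and UCMA is a small secreted protein of young chondrocytes. The parietal bone itself forms directly from mesenchyme without a cartilage model, but cartilage of the skull base and side wall lies next to it in the newborn head.

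Between 8193651 and 12080044 reads were counted on genes in each library, and every library labelled OsxCre;Stat3fl/fl was smaller than every OsxCre library. Values are given as CPM, which are reads per 1000000 of a library's total after that total was scaled by edgeR's TMM method. *Stat3* itself had 149, 134 and 141 CPM in the OsxCre libraries, against 152, 154 and 155 CPM in the libraries labelled OsxCre;Stat3fl/fl, so its gene-level count was not lower in the latter (log2 fold change 0.12, with an adjusted p of 0.442 in the quasi-likelihood test of edgeR). Exons were not told apart in these counts. *Xist*, which marks an inactive X chromosome, was between 878 and 1056 CPM in all 6 libraries and the Y chromosome genes *Kdm5d* and *Ddx3y* were at 0 reads and *Eif2s3y* and *Uty* at 0 to 1 read per library, although the study describes the newborns as male. The genotype is therefore given as the label of each library.

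The chondrocyte markers *Col2a1*, *Acan*, *Matn1*, *Sox9* and *Cnmd* (listed as *Lect1*) were all present in all 6 libraries. *Col2a1*, which encodes the main collagen of cartilage, had 1289, 1511 and 2287 CPM in the OsxCre libraries, against 2670, 2024 and 2451 CPM in those labelled OsxCre;Stat3fl/fl. *Cnmd*, which encodes the cartilage protein chondromodulin, had between 52.5 and 83.4 CPM. Cartilage transcripts were thus measured in every library of this membrane bone. In such bulk tissue, a difference in the number of chondrocytes and a difference in RNA per chondrocyte cannot be told apart.

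Per kilobase of exon, *Matn1* stood highest of the 10 genes in the OsxCre libraries, with 67.7 ± 31.0 CPM per kb (SD, n = 3). *Matn4* followed with 46.3 ± 5.63 and *Acan* with 29.6 ± 4.18 CPM per kb. *Comp* had 19.7 ± 7.63, *Ucma* 9.55 ± 2.96, *Sox6* 5.10 ± 0.665 and *Sox9* 3.96 ± 0.467 CPM per kb. *Matn3*, *Sox5* and *Hapln1* were lowest, with 1.76 ± 0.847, 0.512 ± 0.0596 and 0.0662 ± 0.0249 CPM per kb. The ranges of the 3 OsxCre libraries overlapped between *Matn1* and *Matn4* and between *Acan* and *Comp*, so the order within these pairs is not settled, while all other neighbours in the order were apart. Exon lengths came from another annotation than the counts, and which exons entered the counts is not given in the sources used here.

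Comparing the genotypes asks whether cartilage genes in the newborn skull roof change when *Stat3* is deleted in osteoblast precursors. In edgeR's quasi-likelihood test, 0 of the 9 genes tested passed an adjusted p of 0.05, against 1.26% of all 15600 genes tested (0.776% higher and 0.481% lower). The adjusted p-values of the 9 genes ran from 0.235 for *Acan* to 0.998 for *Comp*. At an unadjusted p under 0.05, 1 of the 9 was called, *Acan*, which was higher, against 16.4% of all genes tested (8.03% higher and 8.34% lower). DESeq2's Wald test and limma-voom also called 0 of the 9 at an adjusted p under 0.05 and 1 at an unadjusted p. The unadjusted count in edgeR was 2 with library totals and 0 to 2 with a library left out. *Matn1* passed without OsxCre library 3. *Sox6* passed without library 2 labelled OsxCre;Stat3fl/fl and *Matn4* without library 1 labelled OsxCre;Stat3fl/fl. The values of the genotypes overlapped for all 9 genes, whereas they were apart for 23% of all genes tested (10.8% higher and 12.2% lower). The median log2 fold change was 0.0018 over the 9 genes and -0.0037 over all genes tested, with 5 of the 9 above 0.

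The intervals of the fit to all 6 libraries, each for a single gene, give bounds on the size of a change. They can depend on a single library. Without OsxCre library 3 the log2 fold change went from 0.27 to 0.72 for *Matn1* and from 0.0018 to 0.37 for *Comp*. The bounds below are those with all 6 libraries. The 95% confidence interval of the fold change lay within 2-fold in either direction for 8 of the 9 genes, *Matn3* being the exception, and within 1.5-fold for 3 of them, *Sox5*, *Sox9* and *Matn4*. It included no change for 8 of the 9, all but *Acan*.

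**Figure D1:**
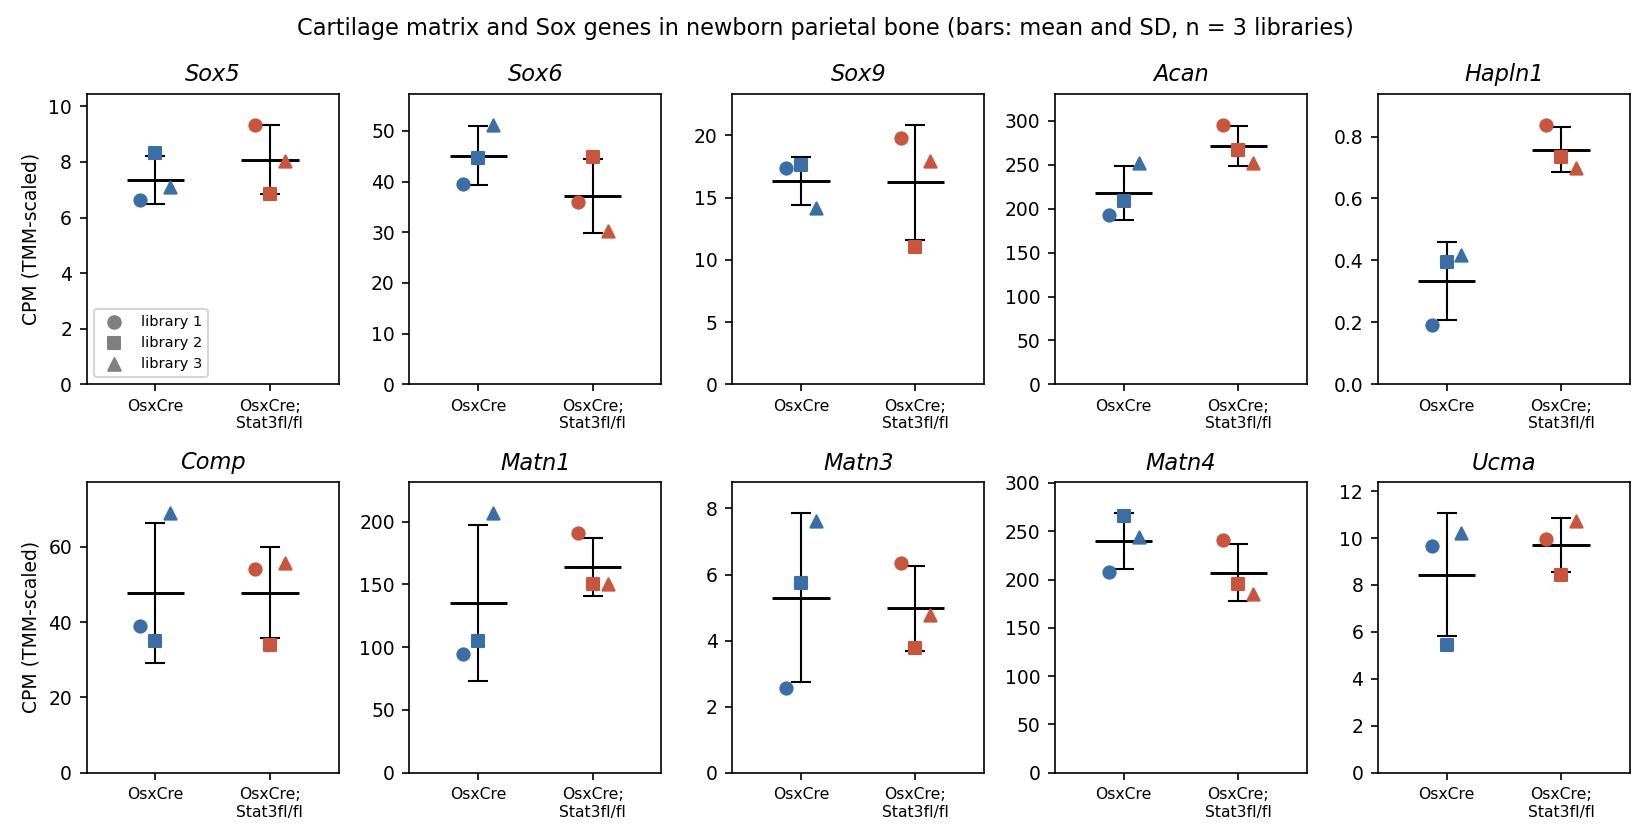
CPM (TMM-scaled, linear axes from 0) of the 10 genes in the 3 OsxCre libraries (blue) and the 3 libraries labelled OsxCre;Stat3fl/fl (red), with symbols for library number and bars for the mean and SD. The genotypes overlap in every panel except that of Hapln1, where 2 to 7 reads lie behind each point.

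*Sox9* encodes the SOX factor on which chondrocyte formation depends. It lies on chromosome 11 (GRCm38.p6, 112782210 to 112787757) and had 17.4, 17.6 and 14.1 CPM in the OsxCre libraries, against 19.8, 11.003 and 18.0 CPM in those labelled OsxCre;Stat3fl/fl. The highest and the lowest of the 6 values thus both belonged to libraries labelled OsxCre;Stat3fl/fl. On the log2 scale the genotypes differed by -0.0092 (standard error 0.22, 95% interval -0.51 to 0.49, adjusted p = 0.991 from edgeR). With each library left out in turn it ran from -0.17, without library 1 labelled OsxCre;Stat3fl/fl, to 0.21, without library 2 labelled OsxCre;Stat3fl/fl.

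*Sox5* and *Sox6* encode the SOXD partners of SOX9, and *Sox6* is also used in skeletal muscle and red blood cell precursors. *Sox5* (chromosome 6, 143828425 to 144782287) had 6.64, 8.31 and 7.11 CPM in the OsxCre libraries, against 9.34, 6.85 and 8.05 CPM in those labelled OsxCre;Stat3fl/fl. Its log2 fold change was 0.14 (95% interval -0.30 to 0.57, adjusted p = 0.78 from edgeR), with the genotypes interleaved. With a library left out it ran from 0.02, without library 1 labelled OsxCre;Stat3fl/fl, to 0.25, without library 2 labelled OsxCre;Stat3fl/fl, and it was 0.07 without OsxCre library 1 and 0.23 without OsxCre library 2. *Sox6* (chromosome 7, 115470872 to 116040776) had 39.5, 44.7 and 51.2 CPM against 36.0, 44.9 and 30.3 CPM. Libraries 1 and 3 labelled OsxCre;Stat3fl/fl were below all OsxCre libraries, and library 2 lay among them. For *Sox6* the log2 fold change was -0.29 (standard error 0.16, 95% interval -0.65 to 0.08, adjusted p = 0.414 from edgeR). It was the most negative of the 9 genes, and it was -0.44 without library 2 labelled OsxCre;Stat3fl/fl (adjusted p = 0.222 from edgeR) and -0.16 without library 3 labelled OsxCre;Stat3fl/fl.

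*Sox6os*, which overlaps *Sox6*, was counted with 5 to 14 reads per library. The library kit did not mark strand, so reads of a stretch that *Sox6* shares with an antisense transcript cannot be assigned. Other tissues that use *Sox6* differed between these libraries. The summed level of 8 skeletal muscle markers was 29922 to 32084 CPM in the OsxCre libraries and 35204 to 52472 CPM in the libraries labelled OsxCre;Stat3fl/fl. The summed level of 6 erythroid markers was 193 to 298 CPM in the OsxCre libraries and 127 to 204 CPM in the others. The part of either tissue in the *Sox6* values was not tested.

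The promoter windows of the 10 genes were read from RefSeq (GRCm38.p6), each from 250 bases before to 50 bases after an annotated start. The table held 14 windows for 8 of the genes, 6 of them for *Sox6*, and none was used for *Sox9* and *Comp*. The windows of *Sox5* and *Sox6*, both on the minus strand, lay inside the gene spans given above. They belong to internal starts, and the outermost start of either gene was not covered. Searched were the letters TTCNNNGAA, the spaced palindrome that STAT proteins bind, and ACAAAG or ACAATG, short forms of the SOX motif that TCF and LEF factors also read, on both strands. TTCNNNGAA stood in 2 of the 14 windows, both of *Sox6*, and in 8.30% of all 32851 windows in the table. The SOX letters stood in 6 of the 14, 5 of *Sox6* and 1 of *Sox5*, and in 28.6% of all windows. No window of *Acan*, *Hapln1*, *Matn1*, *Matn3*, *Matn4* or *Ucma* held either. A match is a description of letters, and no binding was measured here. Both *Sox6* windows with TTCNNNGAA are printed because they hold the letters that STAT proteins bind, and that of *Acan* because it was the 1 gene past an unadjusted p of 0.05. Each is given as the 250 bases before the start, 5′ to 3′ on the gene's strand, with matches of both motifs in capitals and positions counted back from the start.
Sox6 window with TTCNNNGAA at -88, chr7:116031048-116031297, minus strand: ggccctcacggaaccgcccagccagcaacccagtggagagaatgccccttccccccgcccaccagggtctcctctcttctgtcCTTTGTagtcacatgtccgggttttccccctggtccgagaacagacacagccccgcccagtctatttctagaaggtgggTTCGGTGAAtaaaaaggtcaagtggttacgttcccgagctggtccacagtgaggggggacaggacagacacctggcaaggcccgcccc
Sox6 window with TTCNNNGAA at -21, chr7:115846141-115846390, minus strand: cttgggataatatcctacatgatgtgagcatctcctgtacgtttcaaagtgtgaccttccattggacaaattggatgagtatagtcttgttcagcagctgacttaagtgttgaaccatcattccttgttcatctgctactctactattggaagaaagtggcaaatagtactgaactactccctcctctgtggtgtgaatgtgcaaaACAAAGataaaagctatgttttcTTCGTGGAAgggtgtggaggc
Acan, chr7:79052976-79053225, plus strand: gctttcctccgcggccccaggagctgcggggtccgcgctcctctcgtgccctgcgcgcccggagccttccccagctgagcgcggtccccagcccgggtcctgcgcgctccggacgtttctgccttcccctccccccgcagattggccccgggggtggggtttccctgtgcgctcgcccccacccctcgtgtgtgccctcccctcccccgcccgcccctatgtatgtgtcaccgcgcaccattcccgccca
Beyond their motifs the windows differed in base composition, with 74.0% G and C in the 300 bases around the *Acan* start, 63.3% and 41.0% in those of the *Sox6* starts, and a median of 52.7% over all windows.

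*Acan* encodes aggrecan, the proteoglycan that gives cartilage its resistance to compression (chromosome 7, 79053226 to 79115099). It had 193, 209 and 252 CPM in the OsxCre libraries, against 296, 267 and 252 CPM in those labelled OsxCre;Stat3fl/fl. Library 3 of each genotype met at the same level, and the other values were apart. The log2 fold change of 0.32 (standard error 0.12, 95% interval 0.05 to 0.59, unadjusted p = 0.027) did not pass the adjustment over all genes (adjusted p = 0.235 in edgeR). The exact permutation test of the 6 values, two-sided, gave p = 0.2, and 3 libraries against 3 cannot go below 0.1. The unadjusted call was lost in edgeR without OsxCre library 1 (log2 fold change 0.24, adjusted p = 0.472), without OsxCre library 2 (0.28, adjusted p = 0.449) and without library 1 labelled OsxCre;Stat3fl/fl (0.25, adjusted p = 0.392). Without OsxCre library 3 the value was 0.44 (adjusted p = 0.132 from edgeR).

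*Hapln1* encodes the link protein that fixes aggrecan to hyaluronan (chromosome 13, 89540529 to 89611832). It had 2, 4 and 5 reads in the OsxCre libraries and 7, 6 and 6 reads in the libraries labelled OsxCre;Stat3fl/fl, or 0.190 to 0.418 CPM and 0.700 to 0.838 CPM. A count of 3, taken as the floor of what a library can show, corresponds to 0.251 to 0.367 CPM, so the OsxCre values lay at or near it. The genotypes did not overlap, with 11 reads in all against 19, a ratio of 2.24 per scaled read (95% exact binomial interval 1.01 to 5.22, which covers counting error only). In edgeR without the filter on low counts, the log2 fold change was 1.13 (adjusted p = 0.507 over 28016 genes). Its level was 0.0662 against 29.6 CPM per kb for *Acan*, its partner in the matrix, in the OsxCre libraries. Whether reads of *Hapln1* were lost in the counting was not tested, so these values are levels in the count tables.

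*Matn1*, *Matn3* and *Matn4* encode matrilins, adaptor proteins that link collagen fibrils and aggrecan. *Matn1* and *Matn3* are used mainly in cartilage and *Matn4* also in loose connective tissue. *Matn1* (chromosome 4, 130944385 to 130955476) had 94.8, 105 and 207 CPM in the OsxCre libraries, against 191, 150 and 150 CPM in those labelled OsxCre;Stat3fl/fl. OsxCre library 3 was the highest of all 6, and OsxCre libraries 1 and 2 were the lowest. Its fold change on the log2 scale was 0.27 (standard error 0.28, 95% interval -0.38 to 0.92, adjusted p = 0.687 from edgeR). Without OsxCre library 3 it was 0.72 (adjusted p = 0.0705 from edgeR), and without OsxCre library 1, OsxCre library 2 or library 1 labelled OsxCre;Stat3fl/fl it was 0.08, 0.12 or 0.15. The adjusted p of 0.0705 was the smallest of any of the 9 genes in the fits that scaled the libraries.

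*Matn3* (chromosome 12, 8947929 to 8972028) had 2.56, 5.73 and 7.62 CPM against 6.35, 3.79 and 4.78 CPM, with a log2 fold change of -0.10 (95% interval -1.005 to 0.81, adjusted p = 0.939 from edgeR). Its OsxCre values spanned 2.97-fold, the widest spread of the 9 genes tested, and its log2 fold change was 0.27 without OsxCre library 3, 0.07 without library 2 labelled OsxCre;Stat3fl/fl, -0.31 without library 1 labelled OsxCre;Stat3fl/fl, -0.42 without OsxCre library 1 and -0.04 without OsxCre library 2. It was counted with 27 to 91 reads per library.

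*Matn4* (chromosome 2, 164389393 to 164405160) had 208, 266 and 245 CPM in the OsxCre libraries, against 241, 195 and 185 CPM in those labelled OsxCre;Stat3fl/fl. Libraries 2 and 3 labelled OsxCre;Stat3fl/fl were below all OsxCre libraries, and library 1 lay among them. *Matn4* had a log2 fold change of -0.21 (standard error 0.13, 95% interval -0.51 to 0.09, adjusted p = 0.468 from edgeR), and it ran from -0.33 without library 1 labelled OsxCre;Stat3fl/fl to -0.13 without OsxCre library 2. *Matn4* overlaps *Rbpjl* in RefSeq (164403081 to 164415448), and without strand the reads of the shared stretch cannot be assigned. *Rbpjl* was counted with 111, 254 and 204 reads in the OsxCre libraries and 83, 70 and 61 in the others. Its part in the *Matn4* values was not tested.

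*Comp* encodes cartilage oligomeric matrix protein, which is also made in tendon and ligament (chromosome 8, 70373548 to 70382066). It had 39.1, 35.1 and 69.0 CPM in the OsxCre libraries, against 54.0, 33.9 and 55.8 CPM in those labelled OsxCre;Stat3fl/fl. The means, 47.7 ± 18.5 and 47.9 ± 12.2 CPM (SD, n = 3), were nearly equal, with OsxCre library 3 the highest and library 2 labelled OsxCre;Stat3fl/fl the lowest of all 6. The log2 fold change was 0.0018 (standard error 0.28, 95% interval -0.65 to 0.66, adjusted p = 0.998 from edgeR). With each library left out in turn it ran from -0.18, without OsxCre library 2, to 0.37, without OsxCre library 3. Of 6 tendon and ligament markers, 1 rose, *Thbs4*, a thrombospondin related to COMP, against 0.776% of all genes tested. *Thbs4* had 136, 117 and 116 CPM against 182, 200 and 192 CPM, a log2 fold change of 0.64 (adjusted p = 0.0213 from edgeR). This call was lost in 5 of the 6 fits that left out a library, all but that without OsxCre library 1. The summed level of the 6 markers was 657 to 773 CPM in the OsxCre libraries and 729 to 856 CPM in the others, and its part in the *Comp* values was not tested.

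*Ucma* (chromosome 2, 4976122 to 4985748) had 9.68, 5.44 and 10.2 CPM in the OsxCre libraries, against 9.94, 8.44 and 10.7 CPM in those labelled OsxCre;Stat3fl/fl. Apart from OsxCre library 2, all values lay between 8.44 and 10.7 CPM. The log2 fold change was 0.20 (95% interval -0.39 to 0.78, adjusted p = 0.761 from edgeR), and it ran from -0.04 without OsxCre library 2 to 0.36 without OsxCre library 3.

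**Figure D2:**
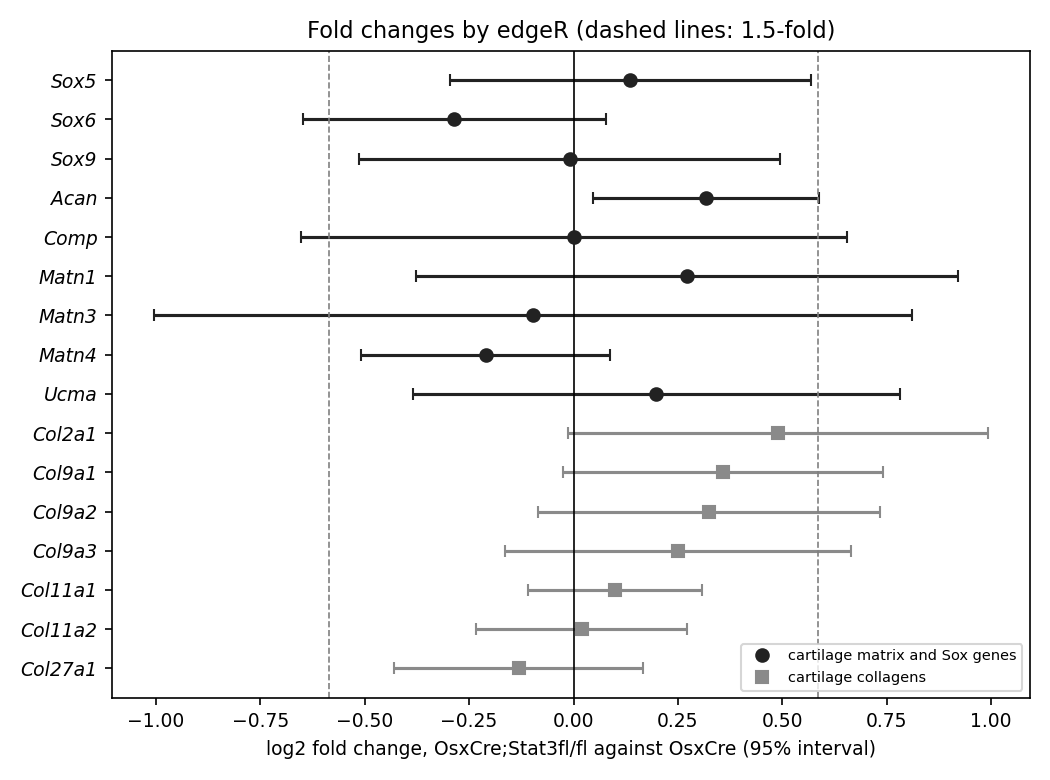
Log2 fold change and 95% interval from edgeR for the 9 genes tested (circles) and the 7 cartilage collagens (squares), libraries labelled OsxCre;Stat3fl/fl against OsxCre, with dashed lines at 1.5-fold. Only the interval of Acan leaves out 0, and only that of Matn3 reaches past 2-fold, at -1.005.

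The spread among the OsxCre libraries differed from gene to gene. The highest OsxCre value was 2.18-fold the lowest for *Matn1*, 2.97-fold for *Matn3*, 1.96-fold for *Comp* and 1.88-fold for *Ucma*. It was 1.25-fold for *Sox5*, 1.30-fold for *Sox6* and 1.24-fold for *Sox9*, and 1.31-fold for *Acan* and 1.28-fold for *Matn4*. OsxCre library 3 was the highest of the OsxCre libraries for 6 of the 9 genes and for 6 of the 7 cartilage collagens, and OsxCre library 1 the lowest for 6 and 4. The summed level of the 10 genes was 611, 696 and 863 CPM in the OsxCre libraries and 863, 721 and 716 CPM in the others. OsxCre library 3 therefore reached the level of the highest library labelled OsxCre;Stat3fl/fl. *Col10a1*, a collagen of hypertrophic chondrocytes, showed the same library high, with 35.4, 39.3 and 114 CPM in the OsxCre libraries and 84.6, 50.002 and 79.1 CPM in the others. Without OsxCre library 3, the median log2 fold change of the 9 genes was 0.27. In that edgeR fit 0 of them passed an adjusted p of 0.05, and 2 an unadjusted p, *Acan* and *Matn1*. The median was 0.21 without library 2 labelled OsxCre;Stat3fl/fl and 0.04 without OsxCre library 1. It was -0.09 and -0.07 without libraries 1 and 3 labelled OsxCre;Stat3fl/fl, each in turn, and -0.04 without OsxCre library 2.

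**Figure D3:**
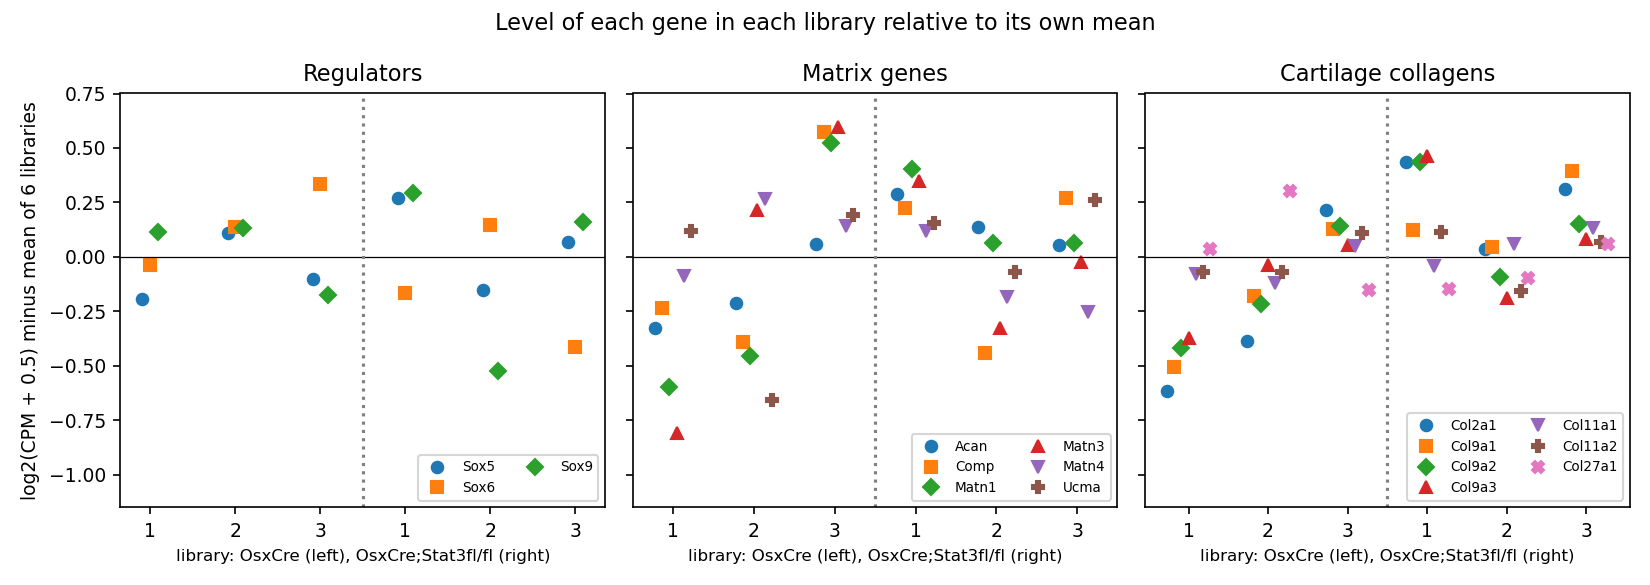
Log2(CPM + 0.5) of each gene in each library minus its mean over the 6 libraries, for the Sox genes, the other matrix genes tested and the cartilage collagens, with OsxCre libraries left and libraries labelled OsxCre;Stat3fl/fl right of the dotted line. OsxCre library 3 is high for Comp, Matn1 and Matn3, and OsxCre library 1 is low for Matn1, Matn3 and Col2a1.

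The genes with the most similar pattern were sought by the root mean square distance of their centred log2(CPM + 0.5) to the mean pattern of the 9 genes over the 6 libraries. Outside the gene lists used here, the nearest were *Rab3ip*, *0610040J01Rik*, *Mfi2*, *Loh12cr1* and *Spsb3*, at distances of 0.0462, 0.0514, 0.0526, 0.0540 and 0.0610. These 5 were picked for being closest. The distances of the 9 genes to their own mean pattern ran from 0.156 for *Acan*, at rank 866 among the genes tested, to 0.320 for *Matn3*, at rank 10904.

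The rest of the cartilage programme was read from lists fixed with earlier results of these data known. Of the 7 cartilage collagens, 0 passed an adjusted p of 0.05 in edgeR and 0 an unadjusted p, and DESeq2 and limma-voom called 0 at an adjusted p. Their median log2 fold change was 0.25, with 6 of the 7 above 0, against -0.0037 over all genes tested. This median was 0.14 without OsxCre library 1, 0.14 without library 1 labelled OsxCre;Stat3fl/fl and 0.40 without library 2 labelled OsxCre;Stat3fl/fl. Without OsxCre library 3 it was 0.34, and 0 of the 7 passed an adjusted p of 0.05 in edgeR. In that fit *Col2a1*, *Col9a1* and *Col9a2* had unadjusted p-values of 0.0022, 0.0075 and 0.019 from edgeR, and the other collagens did not pass. *Col2a1* stood at a log2 fold change of 0.49 (standard error 0.22, 95% interval -0.01 to 0.99, adjusted p = 0.317 from edgeR), and 0.77 without OsxCre library 3 (adjusted p = 0.114 from edgeR). The type IX collagen genes *Col9a1*, *Col9a2* and *Col9a3* had 0.36, 0.33 and 0.25, and the type XI genes *Col11a1* and *Col11a2* had 0.10 and 0.02. *Col27a1*, a minor fibrillar collagen, had -0.13. Over the 6 fits that each left out a library, *Col9a1* ran from 0.22 to 0.53, *Col9a2* from 0.18 to 0.49, *Col9a3* from 0.06 to 0.40, *Col11a1* from 0.06 to 0.15, *Col11a2* from -0.03 to 0.11 and *Col27a1* from -0.23 to -0.0056. The summed collagen level was 3587, 3981 and 5118 CPM in the OsxCre libraries and 5713, 4520 and 5358 CPM in the others.

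Of 14 other cartilage matrix genes, 0 passed an adjusted p of 0.05 in edgeR, while 4 were higher and 1 lower at an unadjusted p, which 8.03% and 8.34% of all genes tested were. DESeq2's Wald test called 1 of them higher at an adjusted p, against 1.95% of all genes tested, and limma-voom called 0. Without the filter on low counts, edgeR also called 1 of them higher, against 250 of all 28016 genes fitted. The genotypes were apart for 5 of the 14, 4 higher and 1 lower, against 23% of all genes tested. *Prg4*, which encodes the joint lubricant lubricin, had 19.9, 17.5 and 14.9 CPM in the OsxCre libraries, against 24.3, 27.4 and 35.1 CPM in those labelled OsxCre;Stat3fl/fl, without overlap. Its log2 fold change was 0.73 (adjusted p = 0.0905 from edgeR, 0.0132 from DESeq2). *Cytl1*, a secreted protein of chondrocytes, had 6.17, 8.50 and 9.79 CPM against 20.2, 10.9 and 12.6 CPM, a log2 fold change of 0.83 (adjusted p = 0.187 from edgeR), or 0.52 without library 1 labelled OsxCre;Stat3fl/fl. *Matn2*, a matrilin counted in this list though also used in tissues outside cartilage, had 21.5, 15.03 and 12.9 CPM against 23.5, 23.7 and 24.96 CPM. Its log2 fold change was 0.55 (adjusted p = 0.201 from edgeR). *Matn2* was thus also without overlap.

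Of 16 other *Sox* family genes, 11 could be tested, and 0 passed an adjusted or an unadjusted p of 0.05 in edgeR. DESeq2 and limma-voom also called 0 at an adjusted p. The smallest p-values were those of *Sox18* (log2 fold change -0.27), a gene of blood and lymph vessels, *Sox10* (0.47), a gene of neural crest and Schwann cells, and *Sox11* (-0.695), a gene of immature neurons, with adjusted p-values of 0.356, 0.375 and 0.444 from edgeR. *Sox11* stood at -0.07 without OsxCre library 2, and *Sox10* at 0.15 without library 1 and at 0.71 without library 2 labelled OsxCre;Stat3fl/fl. *Sox13*, the third SOXD gene, had -0.13, and *Sox8*, a close relative of *Sox9*, had 0.13. Neuron markers differed widely within genotypes, with a summed level of 80.1 to 403 CPM in the OsxCre libraries and 30.4 to 313 CPM in the others. The astrocyte and oligodendrocyte markers summed to 50.6 to 230 CPM and 22.6 to 81.0 CPM, with *Mog* at 0 to 2 reads. The erythroid, neuron and astrocyte and oligodendrocyte lists had 0 genes past an adjusted or an unadjusted p of 0.05 in edgeR, and 0 at an adjusted p in DESeq2 and limma-voom. The part of neural tissue in the *Sox* values was not tested.

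Of 15 chondrogenic regulators, 9 could be tested, and 0 passed an adjusted p of 0.05 in edgeR, DESeq2 or limma-voom. At an unadjusted p in edgeR, 1 was higher and 2 were lower, against 8.03% and 8.34% of all genes tested. *Arid5b*, a partner of SOX9, stood at a log2 fold change of 0.44 (adjusted p = 0.104 from edgeR). *Bmpr1b*, a BMP receptor of cartilage condensations, had -0.67 (adjusted p = 0.123), and *Trps1*, a repressor in chondrocytes, had -0.24 (adjusted p = 0.233). The genotypes were apart for 4 of the 9, 1 higher and 3 lower, against 10.8% and 12.2% of all genes tested, and these 4 were the 3 named and *Gdf5*, a joint growth factor gene that was also lower.

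The genes that sulfate and assemble the sugar chains of aggrecan showed 0 of 14 past an adjusted or an unadjusted p of 0.05 in edgeR, and 0 at an adjusted p in DESeq2 and limma-voom. Their median log2 fold change was 0.07, and those with the smallest p were *Chpf* (-0.23), *Chst11* (0.22) and *Papss2* (0.47), with adjusted p-values of 0.326, 0.348 and 0.361 from edgeR. They stood at -0.13 without OsxCre library 1, 0.14 without library 1 labelled OsxCre;Stat3fl/fl and 0.28 without OsxCre library 2, respectively. Among 10 genes of aggrecanases, other cartilage proteases and their inhibitors, 9 were tested. None passed an adjusted p of 0.05 in edgeR or limma-voom (0 of 9). In edgeR, 2 had an unadjusted p under 0.05, both higher (8.03% of all genes tested). DESeq2 called 1 higher at an adjusted p (1.95% of all genes tested in DESeq2). Without the filter on low counts, edgeR also called 1 higher, against 250 of all 28016 genes fitted. *Adamts5*, the main aggrecanase of mouse cartilage, had 74.1, 63.1 and 64.4 CPM in the OsxCre libraries, against 79.2, 94.7 and 86.2 CPM in those labelled OsxCre;Stat3fl/fl, without overlap. Its log2 fold change was 0.37 (adjusted p = 0.127 from edgeR). *Adamts1* stood at a log2 fold change of 0.50 (adjusted p = 0.103 from edgeR, 0.0211 from DESeq2) and *Adamts7*, which can cleave COMP, had -0.22 (adjusted p = 0.319 from edgeR). Of the 9, 2 were apart and higher (*Adamts1* and *Adamts5*) and 1 apart and lower (*Adamts7*), against 10.8% and 12.2% of all genes tested.

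Of 7 hypertrophic chondrocyte genes, 6 were tested and 0 passed an adjusted p of 0.05 in edgeR, DESeq2 or limma-voom, while 2 were lower at an unadjusted p in edgeR (8.34% of all genes tested). These were *Panx3* (log2 fold change -0.32, adjusted p = 0.11 from edgeR) and *Pth1r* (-0.33, adjusted p = 0.176), and the next was *Mmp13* (-0.58, adjusted p = 0.326, or -0.37 without library 2 labelled OsxCre;Stat3fl/fl). All 3 are also used in osteoblasts. Of 8 osteoblast markers, 1 fell (0.481% of all genes tested), *Ibsp*, which encodes bone sialoprotein, with a log2 fold change of -0.66 (adjusted p = 0.0213 from edgeR). The call of *Ibsp* was lost without OsxCre libraries 1 and 2 and libraries 1 and 3 labelled OsxCre;Stat3fl/fl, each in turn. At an unadjusted p 2 were lower (8.34% of all genes tested), the other being *Alpl*, the alkaline phosphatase gene of bone, at -0.54 (adjusted p = 0.0578). The osteoblast markers had a median of -0.22 and summed to 12547 to 16815 CPM in the OsxCre libraries and 10966 to 14004 CPM in the others.

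Of 8 skeletal muscle markers, 1 rose at an adjusted p, *Myh3*, the embryonic myosin heavy chain, with 344, 297 and 381 CPM against 997, 1551 and 808 CPM (log2 fold change 1.71, adjusted p = 0.0204 from edgeR), and 6 had an unadjusted p under 0.05, all higher (8.03% of all genes tested). The call of *Myh3* was lost in the same 4 fits as that of *Ibsp*. DESeq2 called 6 of the muscle, 2 of the osteoblast and 1 of the Schwann cell markers at an adjusted p, the muscle markers higher and the others lower, against 1.95% of all genes tested higher and 1.51% lower in DESeq2. Of 4 Schwann cell markers, 0 passed an adjusted p of 0.05 in edgeR, and limma-voom called 1 lower. At an unadjusted p in edgeR 1 was lower (8.34% of all genes tested), *Pmp2*, with a log2 fold change of -1.43 (adjusted p = 0.0596). With library totals, without the filter on low counts and without scaling, edgeR called 1 of the 4 lower at an adjusted p. Over all genes these settings called 114, 178 and 5451 lower. *Cdh19* was at 0.64 (0.23 without library 1 labelled OsxCre;Stat3fl/fl) and *Foxd3* at -0.15 (-0.0038 without library 2 and -0.28 without library 1 labelled OsxCre;Stat3fl/fl). The 4 markers summed to 64.1 to 70.4 CPM in the OsxCre libraries and 37.4 to 82.5 CPM in the others. Of 6 epidermis and hair follicle markers, 1 was tested (*Krt10*, log2 fold change -0.40, with -0.62 to -0.12 over the fits that left out a library), and the list summed to 3.93 to 11.4 CPM over all 6 libraries. The part of these tissues in the cartilage values was not tested.

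**Figure D4:**
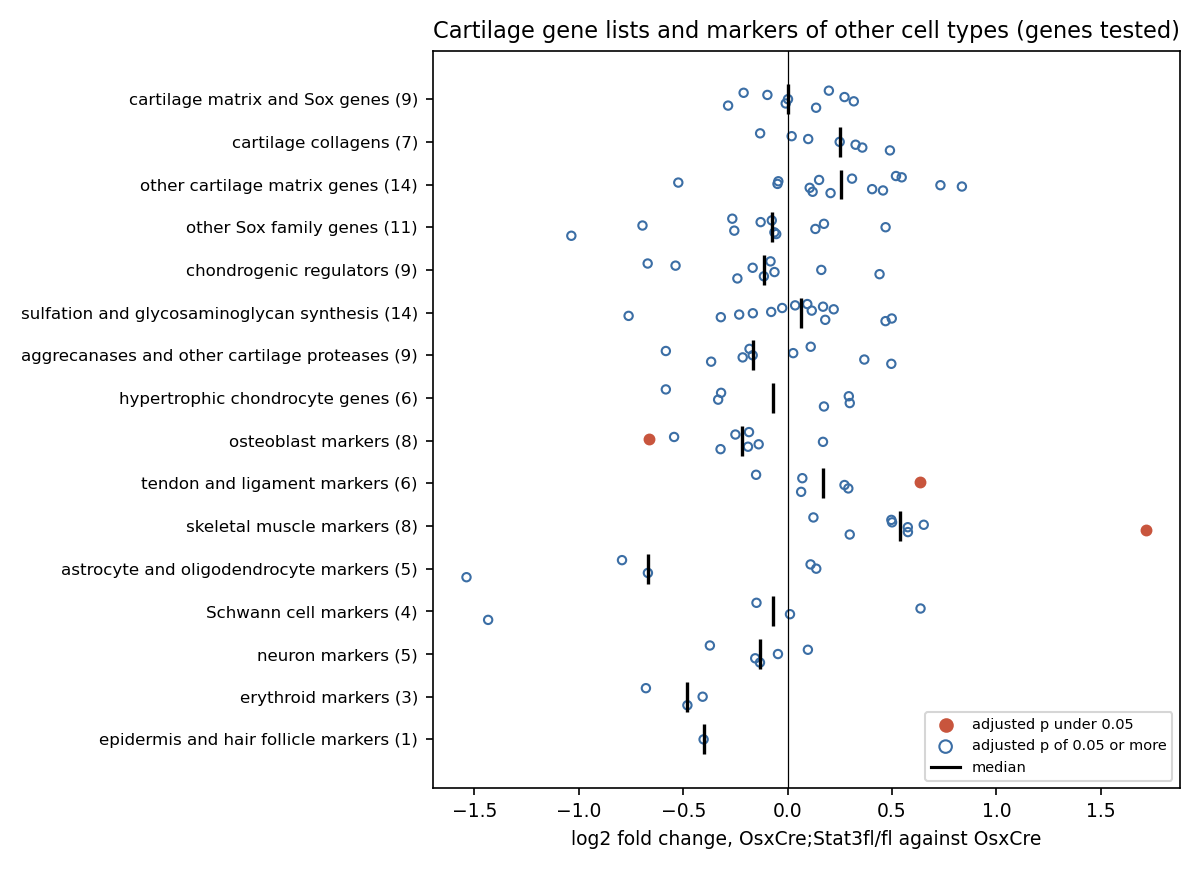
Log2 fold change, libraries labelled OsxCre;Stat3fl/fl against OsxCre, of each gene tested in the cartilage lists and the lists of other cell types, with the number tested in parentheses, medians as black bars and genes with an adjusted p under 0.05 filled. The filled points are Ibsp, Thbs4 and Myh3, and no gene of a cartilage list is filled.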

How the data were processed

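RNA was isolated with Trizol from parietal bone and made into libraries with the Illumina TruSeq RNA kit, which does not mark strand. The authors deposited whole-number counts per gene symbol for each library, without normalization. The submitters' processing notes name HISAT2 and GRCm38, whereas the paper's methods describe TopHat and mm9 for its own FPKM values. The counting program and annotation are not given in the sources used here.

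The counts of the 6 libraries entered edgeR 4.0.16 under R 4.3.3 (filterByExpr with minimum count 10 and minimum total 15, TMM, quasi-likelihood test, two-sided, Benjamini-Hochberg adjustment over 15600 genes). The study's Cuffdiff test needs mapped reads and was not repeated. CPM use the TMM-scaled library total, with factors from 0.933 to 1.04. Standard errors are the log2 fold change divided by the square root of F. The 10 genes and all lists were chosen with earlier results of these data known, and symbols changed between annotations were matched by an older name. Of the lists, 1 gene is not reported here and enters none of their counts. Genes named beyond the 10 are the cartilage collagens, the chondrocyte markers, and in each other list those past an adjusted p of 0.05 or otherwise up to 3 with the smallest p. *Sox13*, *Sox8*, *Col10a1*, *Gdf5*, *Alpl*, *Mog* and *Rbpjl* were named after their values were seen. Positions and promoters are RefSeq's (GRCm38.p6). Exon lengths are unions of GENCODE exons (mm9) by symbol. Libraries of a genotype were no duplicates, with a chi-square per degree of freedom of 8.17 or more for every pair.

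Alternatives were scaling by upper quartile, by library totals, by DESeq2's size factors or not at all, no filter, DESeq2 1.42.0 (Wald test), limma 3.58.1 (voom), the replicate number as a block, and leaving out each library.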

Additional observations from a re-analysis of the deposited data

How the results depend on the processing

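For the 9 genes tested, 0 passed an adjusted p of 0.05 in 13 of the 14 alternatives. Without scaling for library size, 2 were lower, *Sox6* at a log2 fold change of -0.67 and *Matn4* at -0.59, and 1 of the cartilage collagens was lower, *Col27a1*. That setting moved the median of all genes from -0.0037 to -0.38. The signs of *Sox6* and *Matn4* held in all 14 alternatives and that of *Acan* in 13 (-0.07 without scaling). The sign of *Comp* held in 7 of the 14. Over the 6 fits that each left out a library, the log2 fold change was 0.24 to 0.44 for *Acan*, 0.08 to 0.72 for *Matn1*, -0.33 to -0.13 for *Matn4* and -0.44 to -0.16 for *Sox6*.

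Over all genes tested, 121 were higher and 75 lower at an adjusted p under 0.05 from edgeR. These became 250 and 178 without the filter, 304 and 235 with DESeq2's Wald test, and 7 to 67 and 5 to 36 with a library left out. Lower genes were 114 with library totals and 5451 without scaling. After each gene's genotype mean was subtracted from its log2 CPM, same-numbered libraries were not alike (correlations across genes of -0.10, -0.52 and -0.09). The numbers thus gave no sign of pairing, and the labels do not name litters. A replicate block in the fit left 0 genes higher and 1 lower, and the smallest adjusted p of the 9 genes was 0.396, with the unadjusted call of *Acan* lost. With a library left out, *Ibsp* and *Myh3* kept their calls in 2 of 6 fits and *Thbs4* in 1. At 2 to 7 reads a library, *Hapln1* had too few counts for the test, and the cause of its low count was not tested.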

Other observations

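The ratio of 2 genes within a library does not depend on how the libraries are scaled. The pair *Acan* and *Matn4* was chosen after its values were seen. The library values of *Acan* reads per *Matn4* read were 0.925, 0.784 and 1.03 in the OsxCre libraries and 1.23, 1.37 and 1.36 in the libraries labelled OsxCre;Stat3fl/fl. The genotypes did not overlap, which was true of neither gene alone. The log2 fold changes of *Acan* and *Matn4* had opposite signs, 0.32 and -0.21. How many other gene pairs are apart in this way was not counted, while 23% of single genes tested were apart. The part of *Rbpjl*, which overlaps *Matn4*, in the *Matn4* reads was not tested. *Matn1* reads per *Matn4* read were 0.455, 0.393 and 0.845 against 0.792, 0.770 and 0.811, so that OsxCre library 3 lay above all others. *Col2a1* reads per *Matn4* read were 6.19, 5.68 and 9.35 against 11.1, 10.4 and 13.2, also without overlap. *Acan* reads per *Col2a1* read were 0.149, 0.138 and 0.110 against 0.111, 0.132 and 0.103, with overlap. *Matn1* reads per *Col2a1* read were 0.0736, 0.0692 and 0.0904 against 0.0714, 0.0742 and 0.0614, with overlap. These ratios are described without a test.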
